A study of Mus musculus with 4 samples.

Results

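Genes of DNA replication and cell division, 40 of the 27962 genes named on the array, were followed in mouse mucosal mast cells exposed to interleukin 18 (IL-18). They were chosen by name: every gene probe whose name in the scanner files was one of the 40 listed symbols was taken, which gave 62 of 41174 probes and 98 of 43379 gene spots per array. The cells had been differentiated in vitro and were either stimulated with IL-18, a cytokine of the IL-1 family that signals through MyD88, or left unstimulated. RNA of the stimulated cells carried the dye Cy5 and RNA of the unstimulated control of the same replicate carried Cy3, and both were hybridised to 1 array in each of 4 biological replicates. The dyes were never exchanged, so a dye effect particular to a probe and an effect of IL-18 cannot be told apart. Neither the dose of IL-18, the length of exposure nor the strain of mouse is stated in the sources used here, nor is it stated whether the cultures were still dividing.

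Before a cell copies its DNA, Cdt1 and Cdc6 load the MCM helicase (Mcm2 to Mcm7) onto origins, and geminin (Gmnn) holds Cdt1 back once loading is done. D-type cyclins with Cdk4 or Cdk6 release E2F factors in G1, cyclin E and cyclin A with Cdk2 drive S phase, and cyclin B, Plk1 and the Aurora kinases drive mitosis. Cultured mast cells go on dividing under growth factors such as IL-3 and stem cell factor, so their RNA normally holds these transcripts.

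The mean signal of gene spots was 2968 to 3737 units per array in the stimulated channel and 1156 to 1385 in the unstimulated channel. The scanner's flag for signal well above background was set on 57.9% to 62.7% of gene spots in the stimulated and on 49.9% to 54.0% in the unstimulated channel. Of 10 mast cell marker genes found by name, 9 had that flag in unstimulated cells on all 4 arrays, among them Kit, Fcer1a, Mcpt1 and Mcpt2, and Gata2 on 3 of 4. The list's summed normalized signal was 755120 to 865554 in stimulated and 500007 to 619775 in unstimulated cells, and 5 of its 10 tested genes were higher and 1 lower. All 6 macrophage or monocyte markers were well above background, Lyzs the brightest, with summed signals of 76632 to 87555 against 74209 to 82598 and 1 gene called higher. The basophil list (1 of 2 genes higher) summed to 1266 to 2394 against 983 to 1936, and the dendritic cell list (3 genes on the array, of which Itgax, the 1 tested, was lower) to 1988 to 2294 against 2385 to 2560. No gene (0) of the neutrophil, eosinophil, B cell, T cell, erythroid or fibroblast lists was called by limma (2 of their 18 tested genes had an unadjusted p under 0.05), and Epx, Prg2, Ngp, Camp, Cd8a, Siglech and Dcn were well above background on 0 of 4 arrays in both channels. The part of these marker levels in the results on division genes was not tested.

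All 40 genes had at least 1 tested probe, and 58 of the 62 probes were tested. The other 4, which were 2 probes of Top2a, 1 of Rrm1 and 1 of Mcm4, were well above background on no array. Values are log2 ratios of stimulated over unstimulated on loess-normalized arrays, and a gene was called when limma's adjusted p over all tested probes was below 0.05 at its brightest tested probe. Of the 40 genes, 9 were called higher (22.5%, against 19.7% of all 16519 tested genes), 7 lower (17.5%, against 13.7%) and 24 were not called, so that 40% were called in either direction against a background of 33.4%. These shares are near those of all genes. The rises were those of Pcna, Birc5, Cdt1, Mad2l1, Rfc4, Cdk6, Cdc20, Mki67 and Prim1, and the falls those of Cdk4, Ccnd3, Top2a, Mcm2, Mcm6, Cdc45l and Mcm3. Not called were Myc, E2f1, Ccnd1, Ccnd2, Ccne1, Ccne2, Ccna2, Cdk2, Pola1, Rrm1, Rrm2, Tyms, Cdc6, Gmnn, Mcm4, Mcm5, Mcm7, Aurka, Aurkb, Bub1, Bub1b, Ccnb1, Ccnb2 and Plk1. In RNA of whole cultures, a change in the share of dividing cells and a change in RNA per cell cannot be told apart.

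The changes were small. The 40 log2 ratios ran from −0.61 to 0.51, with a median of 0.043 against 0.035 over all tested genes and a median absolute value of 0.129 against 0.119. Only 1 gene, Cdk4, reached 1.5-fold and 0 of 40 reached 2-fold, where 87 of all tested genes (0.527%) did. All 16 called genes had the same sign on 4 of 4 arrays, as did 60% of the 40 genes and 58.2% of all tested genes. The calls rest on these same 4 values, so the shared sign adds no support to them. Without replicate 2 the calls were 3 higher and 2 lower, and without replicate 3 they were again 3 higher and 2 lower. Over all genes, leaving out replicate 2 took the 3257 higher and 2268 lower calls to 1013 and 563. Leaving out replicate 3 took them to 1251 and 792. Pcna, Birc5, Cdk4 and Ccnd3 were called whichever array was left out. The median absolute log2 ratio over all spots was 0.016 in replicate 1, against 0.094 to 0.117 on the other arrays. Bright probes did not all share this. Replicate 1 read 0.61 for Pcna and −0.47 for Cdk4, but 0.033 for Cdk6. A value near 0 in replicate 1 is therefore not by itself particular to a gene where the probe is dim.

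The sign of the log2 ratio of several falling genes depended on how the dyes were balanced. When each array was centred on its median instead of fitted by loess, the median of all tested genes stood at 0.54, not 0.035, and 27 of the 40 genes were called higher and 0 lower by limma, with 29 of the 40 at an unadjusted p under 0.05, against 63.4% higher and 0.448% lower among all genes. Values under this centring are therefore given below as distances from that median of all genes, or are to be read against it. That median is not matched for brightness. Of genes not called on loess-normalized arrays, the bright Myc (1.20) and Mcm4 (1.13) stood above it. The dim Ccnb1 (0.093) and Ccnd1 (0.14), also not called, stood below it. A place above or below that median does not by itself mark a rise or a fall.

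**Figure D1:**
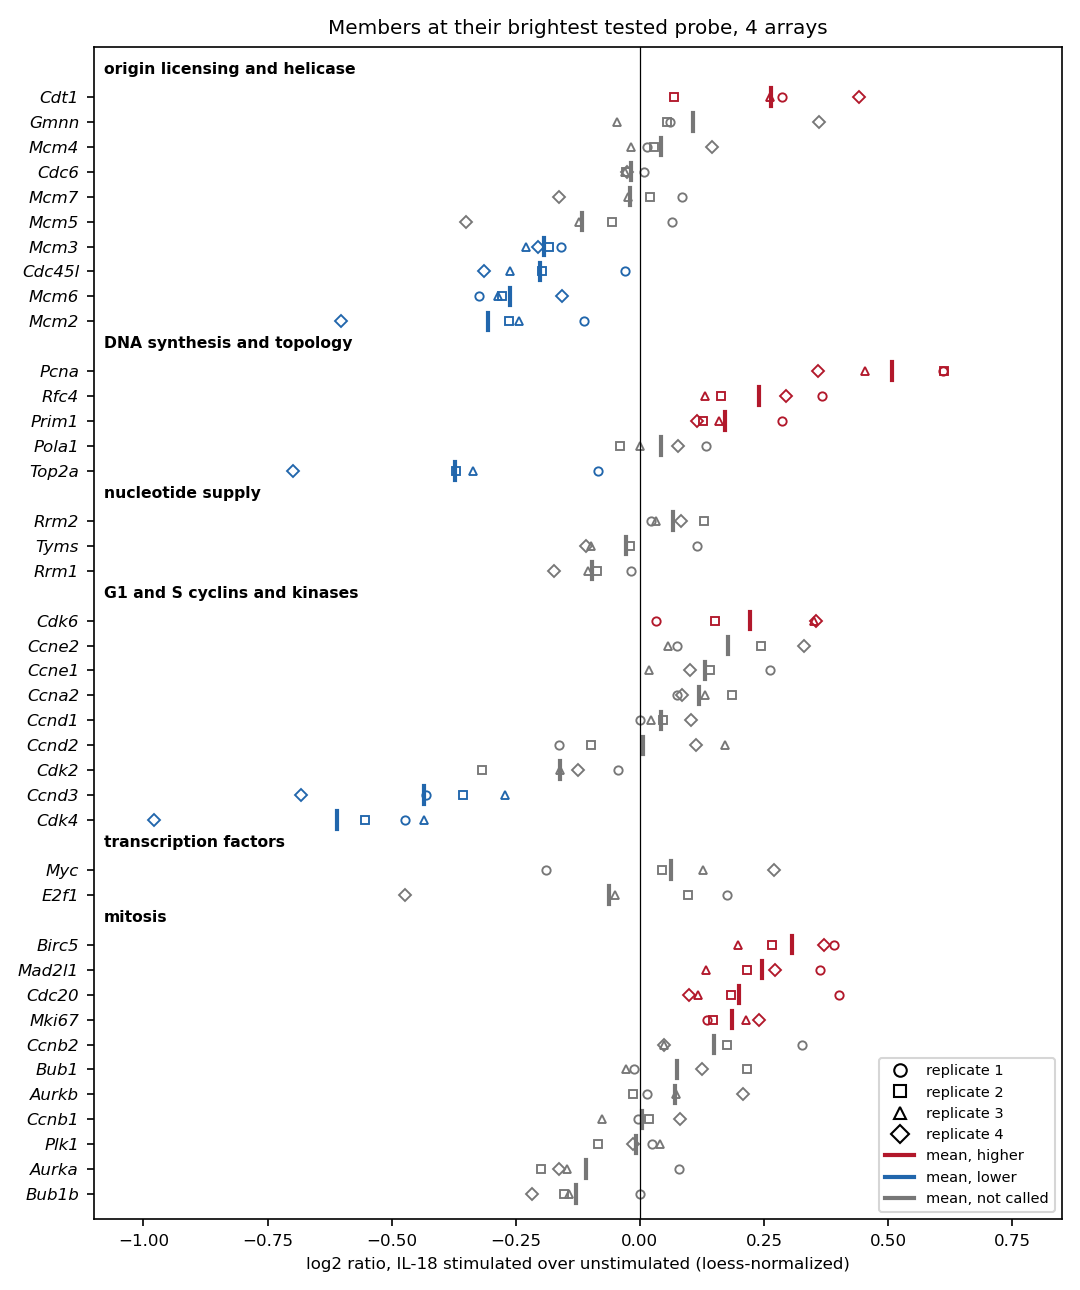
The horizontal axis is the log2 ratio of IL-18 stimulated over unstimulated cells at the brightest tested probe of each of the 40 genes, grouped by role; open symbols are the 4 replicates, bars their mean, and colour gives the call. Means run from −0.61 (Cdk4) to 0.51 (Pcna). Under median centring Mcm3, Mcm6 and Ccnd3, blue here, lay above the median of all genes, which is not matched for brightness.

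The 40 genes were grouped by role in groups of 2 to 11, too small to set against the 19.7% higher and 13.7% lower of all genes. Calls among the 10 genes of origin licensing and the helicase went both ways. Cdt1, the loading factor of the helicase, rose, while 3 of the 6 MCM subunits and Cdc45l (now Cdc45, which joins the MCM ring at the active fork) fell, and 5 genes were not called; the median of the 10 was −0.069. The log2 ratio of Cdt1 was 0.29, 0.068, 0.26 and 0.44 in replicates 1 to 4. Every array was above 0, with replicate 2 near it. The mean was 0.26 ± 0.15 (SD, n = 4; 1.20-fold; adjusted p = 0.0236), and without replicate 3 the adjusted p was 0.0929.

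Mcm6, a subunit of the hexameric helicase, read −0.32, −0.28, −0.29 and −0.16, with all arrays below 0. It fell by 0.26 ± 0.072 (SD, n = 4; adjusted p = 0.00879) on loess-normalized arrays but lay 0.37 above the median of all genes under median centring. Mcm3 was the most even of the group, at −0.16, −0.18, −0.23 and −0.20. It fell by 0.19 ± 0.030 (adjusted p = 0.0147), and under median centring lay 0.47 above the median of all genes. Its other probe read −0.22, −0.53, −0.51 and −0.98 and was lower too, at −0.56 ± 0.31 (adjusted p = 0.0127); under median centring it stood at 0.15, below the 0.54 of all genes. The 2 probes of Mcm3 were thus both lower under loess and lay on opposite sides of the median of all genes under median centring. Their mean log2 intensities were 14.13 and 10.28, and that median is not matched for brightness. Their places around it therefore do not show opposite directions.

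Mcm2 read −0.11, −0.26, −0.24 and −0.60, farthest from 0 in replicate 4. It fell by 0.31 ± 0.21 (SD, n = 4; adjusted p = 0.0288), and lay 0.05 below the median of all genes under median centring. Cdc45l read −0.029, −0.20, −0.26 and −0.31, close to 0 in replicate 1. Its fall of 0.20 ± 0.12 (adjusted p = 0.0364) came from a dim probe (mean log2 intensity 7.53), and the scanner software's own log ratio put it at −0.45. For these 4 falling genes the adjusted p-values were 0.0636 to 0.139 without replicate 2 and 0.0568 to 0.150 without replicate 3, and that of Cdc45l was 0.0799 without replicate 4, while their log2 ratios moved by little.

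The remaining licensing genes were not called. Mcm5 averaged −0.12, Mcm7 −0.021 and Mcm4 0.043, and Cdc6, which loads the helicase together with Cdt1, read −0.018 at its brightest probe and −0.0075 at its other. Geminin, Gmnn, the inhibitor of Cdt1, averaged 0.11 ± 0.18 with replicate 4 at 0.36 and replicate 3 at −0.046.

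MCM genes and Cdc6 are textbook targets of E2F, so their promoters were read from RefSeq (build GRCm38.p6), over the 250 bases before the start. The forms of the E2F site TTTCCCGC, TTTGGCGC, TTTCGCGC and TTTGCCGC were searched on both strands, where they can overlap one another. Stretches holding a match are printed for 3 MCM genes, of which Mcm6 fell, and for Cdc6; capitals mark the matches.
Mcm6 (lower; chr1:128359745-128359851, minus strand, 3 matches): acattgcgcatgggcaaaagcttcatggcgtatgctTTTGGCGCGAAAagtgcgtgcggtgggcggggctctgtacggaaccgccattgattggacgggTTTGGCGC
Mcm5 (not called; chr8:75109320-75109399, plus strand, 2 matches): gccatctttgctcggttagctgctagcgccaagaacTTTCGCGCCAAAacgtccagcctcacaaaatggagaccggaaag
Mcm7 (not called; chr5:138172005-138172084, minus strand, 1 match): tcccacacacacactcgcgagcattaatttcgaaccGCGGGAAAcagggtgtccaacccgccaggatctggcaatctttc
Cdc6 (not called; chr11:98907977-98908056, plus strand, 1 match): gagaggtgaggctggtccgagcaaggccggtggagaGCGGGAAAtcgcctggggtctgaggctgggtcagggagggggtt

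An E2F form was found in 6 of the 32 genes that have an entry in the RefSeq promoter table (18.8%), against 1.86% of all 32851 promoters of that length. The 6 were Mcm5, Mcm6, Mcm7, Cdc6, Pola1 and Cdk2, of which Mcm6 fell and the other 5 were not called. None (0) of the 9 genes called higher held one, but 6 genes are too few to compare by call. A gene counted if any of its entries matched, and 2 of the 32 genes had 2 entries. Mcm6 had matches on both strands that overlap by several bases, and so had Mcm5. A match describes these letters in this window and says nothing of binding.

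Among the 5 genes of DNA synthesis and topology, 3 rose, 1 fell and 1 was not called, with a median of 0.17. Among all tested genes 19.7% rose and 13.7% fell, and 5 genes are too few to compare. Pcna, the sliding clamp that holds DNA polymerase to its template, had the largest rise of the 40 genes. Its raw mean signal was 16166 to 18862 units in the unstimulated and 57346 to 82118 in the stimulated channel. After loess its log2 ratio was 0.61, 0.61, 0.45 and 0.36 in replicates 1 to 4. All arrays were well above 0, higher on slide 1 (replicates 1 and 2) than on slide 2. The mean was 0.51 ± 0.125 (SD, n = 4; 1.42-fold; adjusted p = 0.00236), and Pcna lay 1.29 above the median of all genes under median centring. The probe is printed 10 times per array, and the SD between its spots was 0.032 to 0.054.

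Rfc4, a subunit of the clamp loader that places PCNA on DNA, read 0.37, 0.16, 0.13 and 0.29. It rose by 0.24 ± 0.11 (adjusted p = 0.0185) with all arrays above 0. Prim1, the catalytic subunit of primase, averaged 0.17 ± 0.079 (SD, n = 4; adjusted p = 0.0335), also higher on 4 of 4 arrays. Pola1, the polymerase that extends primase's primers, was at 0.042 ± 0.077 and was not called. The adjusted p of Rfc4 was 0.0717 without replicate 2 and 0.0521 without replicate 3, and that of Prim1 was 0.0676, 0.114 and 0.121 without replicates 1, 2 and 3.

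Top2a, the topoisomerase that untangles replicated DNA, went the other way. Its log2 ratio was −0.085, −0.37, −0.34 and −0.70, near 0 in replicate 1 and farthest from it in replicate 4. It fell by 0.37 ± 0.25 (SD, n = 4; 1.29-fold; adjusted p = 0.0250), with adjusted p-values of 0.106 and 0.0863 without replicates 2 and 3. This probe was dim: its raw signal was 122 to 152 units in the unstimulated and 116 to 125 in the stimulated channel, and the 2 other probes of Top2a were not well above background. With an offset of 10 in place of 50 the log2 ratio was −0.52, and in the scanner software's ratio −0.88.

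The 3 genes of nucleotide supply were not called by limma, and 0 of them had an unadjusted p under 0.05. Rrm1 and Rrm2, the subunits of ribonucleotide reductase, averaged −0.096 ± 0.063 and 0.066 ± 0.050. Thymidylate synthase, Tyms, read −0.028, −0.034 and 0.022 at its 3 tested probes.

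The G1 and S kinases held the largest fall. Among 9 genes of this group, Cdk6 rose, Cdk4 and Ccnd3 fell and 6 were not called, with a median of 0.043. Cdk4, the kinase partner of D-type cyclins, had raw signals of 1605 to 2425 units in the unstimulated and 2346 to 3238 in the stimulated channel, so before normalization the stimulated channel was the brighter one on every array. After loess its log2 ratio was −0.47, −0.55, −0.43 and −0.98. All arrays were below 0, replicate 4 by the most. Cdk4 fell by 0.61 ± 0.25 (SD, n = 4; 1.53-fold; adjusted p = 0.00572), with the scanner software's ratio at −0.63; under median centring its ratio was 0.22, above 0 but 0.31 below the median of all genes.

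The promoter of Cdk4 is shown because it repeats the E-box CACGTG, a palindrome that Myc and related factors bind, with each copy in capitals.
Cdk4 (lower; chr10:127063326-127063529 of GRCm38.p6, plus strand): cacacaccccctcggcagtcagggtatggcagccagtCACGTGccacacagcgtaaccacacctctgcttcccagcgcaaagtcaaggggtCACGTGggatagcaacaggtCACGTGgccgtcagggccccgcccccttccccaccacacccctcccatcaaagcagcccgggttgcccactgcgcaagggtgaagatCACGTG
It holds 4 copies, where 7 of 32851 promoters (0.0213%) hold 4 or more. Any copy was found in 3 of 32 genes (9.38%, against 6.02% of all promoters): Cdk4, which fell, Cdk6, which rose, and Tyms, which was not called.

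Cyclin D3, Ccnd3, read −0.43, −0.36, −0.27 and −0.68. It fell by 0.44 ± 0.18 (SD, n = 4; 1.35-fold; adjusted p = 0.00698) on all 4 arrays, and lay 0.01 above the median of all genes under median centring. Cdk6, the other kinase partner of D-type cyclins, read 0.033, 0.15, 0.35 and 0.36, near 0 in replicate 1 and higher on slide 2 (replicates 3 and 4). It rose by 0.22 ± 0.16 (adjusted p = 0.0411) at its brightest probe only: the 2 other probes, both far dimmer, read −0.019 and −0.084 and were not called. Its adjusted p was 0.117, 0.170 and 0.0943 without replicates 2, 3 and 4.

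Cyclin D2, Ccnd2, depended on the probe. Its brightest probe read −0.16, −0.10, 0.17 and 0.11, below 0 on slide 1 and above 0 on slide 2, with a mean of 0.0056 ± 0.16 (SD, n = 4; adjusted p = 0.954). A probe of nearly the same brightness read −0.50, −0.48, −0.33 and −0.16 and was called lower, at −0.37 ± 0.16 (adjusted p = 0.00921), although under median centring it stood at 0.87, above the 0.54 of all genes. The third read −0.53, −0.44, −0.20 and −0.066, also called lower at −0.31 ± 0.21 (adjusted p = 0.0288), and stood at 0.89 under median centring. All 3 probes were lower on slide 1 than on slide 2.

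Cyclin D1, Ccnd1, was dim (mean log2 intensity 7.41) and close to 0 on every array, at 0.00091, 0.047, 0.022 and 0.10, with a mean of 0.043 ± 0.044. The S phase cyclins were all above 0 on 4 of 4 arrays without passing the test: Ccne2 averaged 0.18 ± 0.13 (adjusted p = 0.0598), Ccne1 0.13 ± 0.10 (adjusted p = 0.0947) and Ccna2 0.12 ± 0.051 (adjusted p = 0.0708). The second probes of Ccne2 and Ccne1 read 0.094 and 0.057. Their kinase Cdk2 averaged −0.16 ± 0.12 (adjusted p = 0.0614), below 0 on 4 of 4 arrays, and 0.020 at a second probe whose unstimulated channel was well above background on no array.

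Neither transcription factor was called at its brightest probe. Myc, which drives growth and many genes of replication, read −0.19, 0.045, 0.13 and 0.27, on both sides of 0, with a mean of 0.063 ± 0.19 (SD, n = 4; adjusted p = 0.533). This probe is printed 10 times per array, and the SD between its spots was 0.024 to 0.034, far below the spread between arrays. The other probes of Myc averaged −0.16 and −0.17, and neither was called.

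E2f1, the activator of S phase genes, read 0.17, 0.097, −0.050 and −0.47 at its brightest probe, above 0 on slide 1 and below it on slide 2. The mean was −0.063 ± 0.29 (SD, n = 4; adjusted p = 0.658). Its other, dimmer probe, printed 10 times, read −0.082, −0.46, −0.49 and −0.84 and was called lower, at −0.47 ± 0.31 (adjusted p = 0.0213); the scanner software gave it −1.11 and median centring −0.31, where its adjusted p was 0.0714. Both probes were lowest in replicate 4.

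Of the 11 genes of mitosis, 4 rose, 0 fell and 7 were not called by limma, with a median of 0.075. Among all tested genes 19.7% rose and 13.7% fell, and 11 genes are too few to compare. In limma, 1 of the 11 lay below 0 at an unadjusted p under 0.05. Birc5, which encodes survivin of the chromosomal passenger complex, read 0.39, 0.27, 0.20 and 0.37. All arrays were above 0, and it rose by 0.31 ± 0.091 (SD, n = 4; 1.24-fold; adjusted p = 0.00694). Mad2l1, the spindle checkpoint protein that holds back the anaphase-promoting complex, read 0.36, 0.22, 0.13 and 0.27 and rose by 0.25 ± 0.096 (adjusted p = 0.0140). Its second probe read 0.37, 0.31, 0.10 and 0.29 and was higher as well, at 0.27 ± 0.11 (adjusted p = 0.0138). Both probes put replicate 1 highest and replicate 3 lowest.

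Cdc20, the activator of the anaphase-promoting complex that Mad2 restrains, read 0.40, 0.18, 0.12 and 0.099, highest in replicate 1, and rose by 0.20 ± 0.14 (adjusted p = 0.0443). Mki67, which encodes the proliferation marker Ki-67, read 0.14, 0.15, 0.21 and 0.24. It rose by 0.18 ± 0.050 (SD, n = 4; adjusted p = 0.0200) at this probe, while a dimmer probe read −0.035 ± 0.040 and was not called. The adjusted p of Mad2l1 was 0.0732 without replicate 2, that of Cdc20 was 0.0739, 0.149 and 0.103 without replicates 1, 2 and 3, and that of Mki67 was 0.0883 and 0.103 without replicates 2 and 3. All 4 rising mitosis genes lay above the median of all genes under median centring, Mki67 by 0.14 and Birc5 by 0.43. That median is not matched for brightness, and bright genes not called, such as Myc and Mcm4, lay above it as well.

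The kinases and cyclins of mitosis were not called. Plk1 averaged −0.0081, Aurka −0.11 ± 0.13, Aurkb 0.070 ± 0.099 and cyclin B1, Ccnb1, 0.0048 at its brightest probe, with 0.032 and 0.10 at its other probes. Cyclin B2, Ccnb2, averaged 0.15 ± 0.13 (adjusted p = 0.0929) and was above 0 on 4 of 4 arrays. The checkpoint kinases Bub1 and Bub1b read 0.075 ± 0.12 and −0.13 ± 0.092. Bub1 was well above background on all 4 arrays in the stimulated channel and on 0 of 4 in the unstimulated one. Set against the dimmest unstimulated signal well above background, or its own where higher, its mean stimulated level was 1.04-fold. This is not a minimum rise. Bub1 read −0.012, 0.22, −0.029 and 0.12 in replicates 1 to 4, with an adjusted limma p of 0.320.

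Birc5 is shown for the one kappaB consensus match among the called genes, a motif of the NF-kB factors that IL-18 signalling activates.
Birc5 (higher; chr11:117849157-117849236 of GRCm38.p6, plus strand, match in capitals): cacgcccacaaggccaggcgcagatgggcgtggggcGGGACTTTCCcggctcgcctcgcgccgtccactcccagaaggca
The consensus was found in 2 of 32 genes (6.25%, against 3.90% of all promoters), Birc5 and Mcm7, the latter not called. The CCAAT box (CCAAT, both strands) was in 22 of 32 genes (68.8%, against 33.8% of all promoters): 4 of the 9 genes that rose, 6 of the 7 that fell and 12 of the 16 not called. The cell cycle homology region (TTTGAA or TTCGAA, both strands) was in 8 of 32 (25.0%, against 17.1%): 2 of the 9 that rose, 3 of the 7 that fell and 3 of the 16 not called. Groups of 9 and 7 genes are too small to compare by motif.

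More than 1 probe was tested for 13 of the 40 genes. Mad2l1 was higher and Mcm3 lower at both probes on loess-normalized arrays. Under median centring the 2 probes of Mcm3 lay on opposite sides of the median of all genes, which is not matched for brightness. In 7 genes no probe was called, and in Ccnd2, Cdk6, E2f1 and Mki67 some were and others were not; 0 genes had calls in both directions. Over all 58 tested probes 10 were higher and 11 lower (36.2% called), against 18.1% higher, 16.1% lower and 34.1% called among 24102 tested probes. Of the called genes, 6 of the 9 that rose and 6 of the 7 that fell rested on 1 probe. When the tested probes of a gene were averaged, Cdk6 read 0.04 (adjusted p = 0.447) and Mki67 0.07 (adjusted p = 0.151), neither called, and Ccnd2 was called lower at −0.22.

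**Figure D2:**
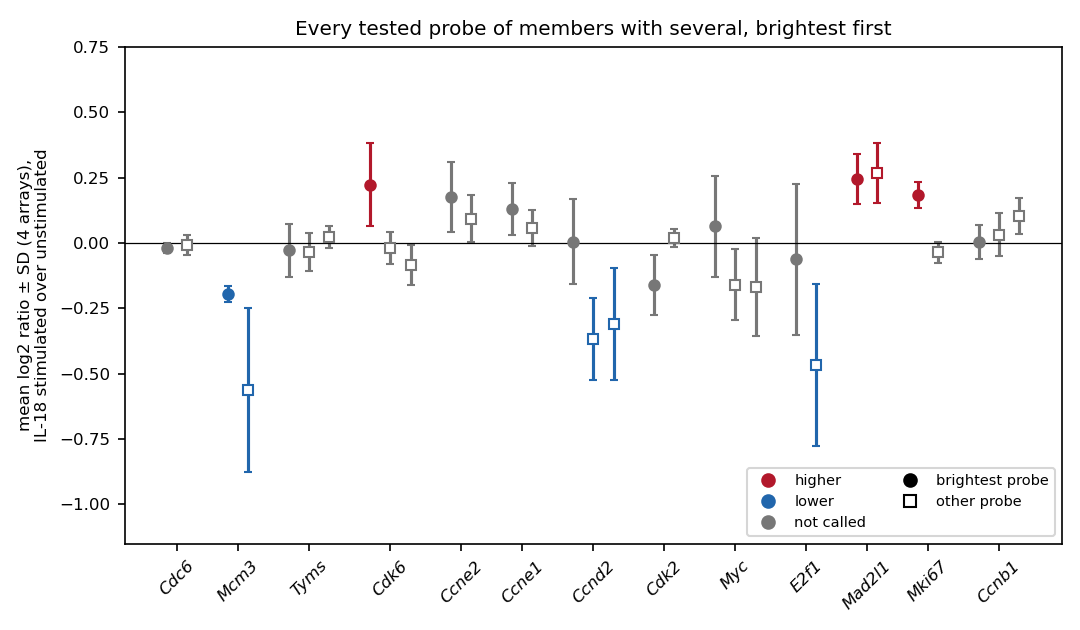
The vertical axis is the mean log2 ratio of stimulated over unstimulated cells ± SD over 4 arrays, for every tested probe of the 13 genes with several; filled circles are the brightest probe, open squares the others, and colour gives the call. The probes of Ccnd2 read 0.0056, −0.37 and −0.31, and those of Cdk6 0.22, −0.019 and −0.084. Under median centring all 3 probes of Ccnd2 lay above the median of all genes, which is not matched for brightness.

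Probes of called genes were, in the median, brighter than those of genes not called. The mean log2 intensity of the probe had a median of 10.46 in the 9 genes that rose, 11.25 in the 7 that fell and 8.999 in the 24 not called, against 9.23 over all tested genes. Brightness describes the probe and not the amount of transcript. Relative to a running median over the probes nearest in brightness, an alternative added after the data were seen, the same 9 genes were higher and the same 7 lower, and Cdk2 (−0.17) and Aurka (−0.13) were also called lower. Under that alternative 18.1% of all genes were higher and 17.1% lower, 35.2% in all.

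**Figure D3:**
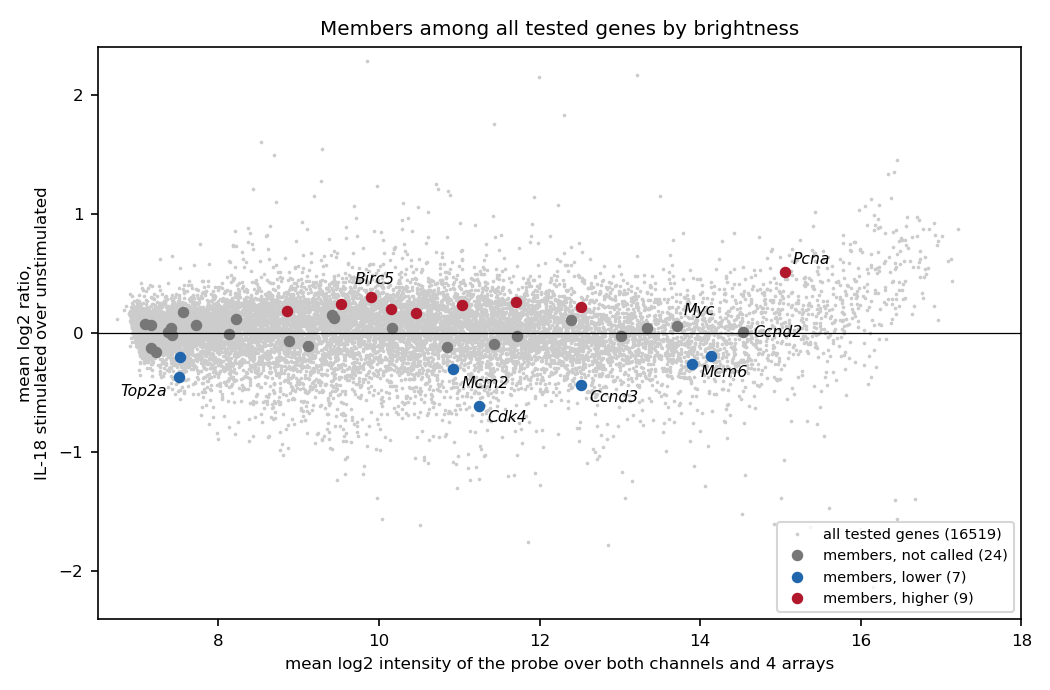
The horizontal axis is the mean log2 intensity of each gene's brightest tested probe and the vertical axis its mean log2 ratio of stimulated over unstimulated cells on loess-normalized arrays; grey dots are all 16519 tested genes and larger dots the 40 division genes by call. The median brightness was 10.46 for the 9 higher, 11.25 for the 7 lower and 8.999 for the 24 not called genes. Under median centring Mcm3, Mcm6 and Ccnd3 lay above the median of all genes, which is not matched for brightness.

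Outside the 40 genes, 111 further genes of replication, the cell cycle, mitosis and the Myc network were listed by function. Of these 104 were on the array by name and 99 were tested, of which 17 were higher (17.2%) and 11 lower (11.1%), below the 19.7% and 13.7% of all genes, with a median of 0.030. Among 35 licensing and fork genes 7 rose and 4 fell, among 26 regulators 5 rose and 4 fell, among 29 mitosis genes 4 rose and 1 fell, and among 9 Myc network genes 1 rose and 2 fell. Without replicate 2 the list had 4 higher and 2 lower genes, and without replicate 3 it had 9 and 3.

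The largest rise was that of Cks2, a small subunit of cyclin-dependent kinases, at 0.55, 0.47, 0.66 and 0.82 on the 4 arrays. It rose by 0.62 ± 0.15 (SD, n = 4; adjusted p = 0.00182), and its other probe by 1.05. Mycn, a relative of Myc, averaged 0.41 at its brightest probe and −0.26 (adjusted p = 0.0559) at the other. Pttg1, which encodes securin, rose by 0.38, Ccnh, a subunit of the CDK-activating kinase, by 0.29 and Rpa3, of the single-strand binding complex, by 0.28. The other probes of Ccnh read 0.043, −0.24 (called lower) and 0.18 (called higher).

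The largest fall was that of Fen1, the flap endonuclease of lagging strand synthesis, at −0.27, −0.53, −0.46 and −0.85. It fell by 0.53 ± 0.24 (SD, n = 4; adjusted p = 0.00793), and lay 0.36 below the median of all genes under median centring. Mnt, a repressor that competes with Myc, fell by 0.42 but lay 0.04 above that median. Chek2, a DNA damage kinase, fell by 0.43, Pola2, a subunit of the polymerase of Pola1, by 0.41 and Cdc25b, a phosphatase that activates cyclin-dependent kinases, by 0.39. The other probes of Chek2 and Cdc25b read 0.0066 and 0.030 and were not called. Without replicate 2 the adjusted p-values of Rpa3, Fen1, Chek2, Pola2 and Cdc25b were 0.0527 to 0.107.

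The 16 calls were compared across processing settings. In the log ratio of the scanner software all 16 genes stayed called in the same direction and 12 of the 40 were higher and 9 lower, against 28.6% higher, 17.4% lower and 45.9% called among all genes. Ccne2, Ccna2 and Ccnb2 joined the higher genes, and Cdk2 (−0.67) and Bub1b (−0.43) the lower ones. Under median centring 63.8% of all genes were called, nearly all higher; the 9 rising genes were called higher there as well, Mcm3 and Mcm6 were called higher in place of lower, Mcm2, Ccnd3 and Cdk4 stood above 0 without a call (adjusted p = 0.0907, 0.0537 and 0.391), and Cdc45l and Top2a stayed below 0 without a call.

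**Figure D4:**
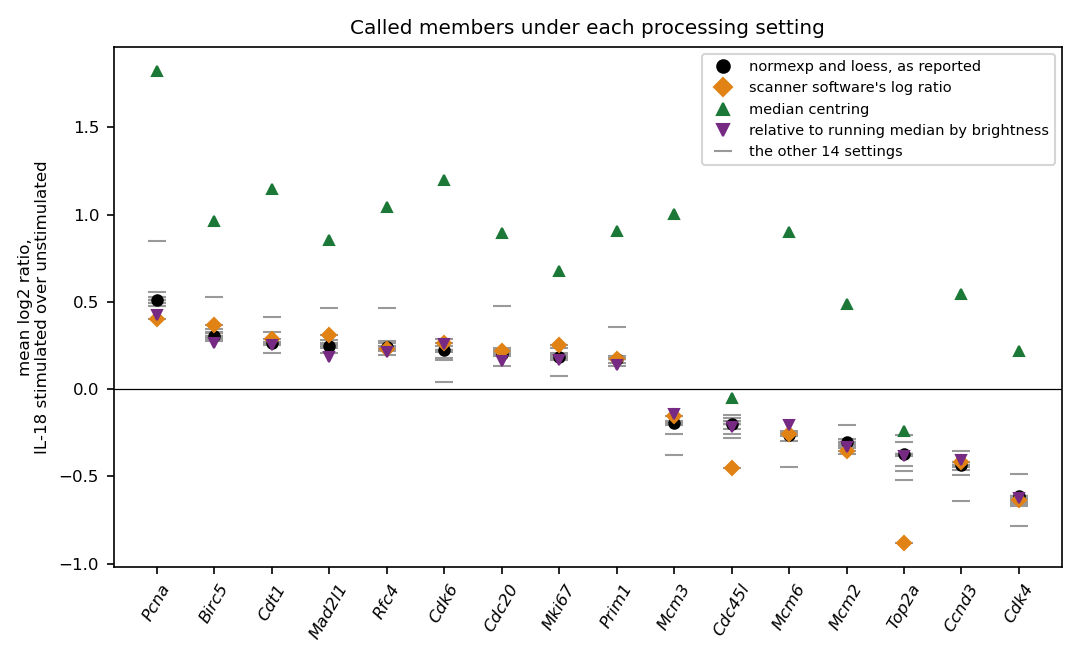
The vertical axis is the mean log2 ratio of stimulated over unstimulated cells for the 16 called genes; black circles are the values as reported, coloured symbols 3 other ways of normalizing and grey ticks the other 14 settings. Green triangles, from median centring, lie above 0 for Cdk4 (0.22), Mcm2 (0.48), Ccnd3 (0.55), Mcm6 (0.90) and Mcm3 (1.00), where the median of all genes was 0.54.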

How the data were processed

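Per the file headers, the authors scanned 4 two-colour Agilent arrays with Feature Extraction 9.1. The deposited intensities used are mean spot signal and median local background, uncorrected. The deposited log10 ratios of Cy5 over Cy3, made by the authors' software with background subtraction, detrending and linear and lowess dye normalization (scanner files and series table, which differ by at most 0.00496, with array medians of 0 in the table) served as alternatives. Per the labels, Cy5 is the stimulated RNA and replicates are biological. The genome build is not given in the sources used here.

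Background was corrected by normexp (offset 50), ratios were fitted by loess within each array, control spots dropped, outlier spots set to missing and spots of a probe averaged. Probes well above background in 1 channel on at least 3 of 4 arrays were tested with limma 3.58.1 (R 4.3.3): intercept, eBayes, two-sided, Benjamini-Hochberg over 24102 probes across all genes, threshold 0.05. The ratio within an array is the replicate's own pair, so this is a paired test. An exact sign-flip test on 4 arrays cannot go below p = 0.125 and was not used. The steps were tested on simulated data. A gene is its brightest tested probe under the name in the files. 4 arrays limit the precision. No arrays were identical.

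Named were all 40 genes, with values per array for the called ones (the 14 largest) and 8 fixed genes, and the 5 largest rises and falls of a wider list. Genes, lists and motifs were chosen with earlier results of these data known. Alternatives changed the background, offset, normalization, filter, moderation, slide, pairing, probe rule and arrays used.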

Additional observations from a re-analysis of the deposited data

Results flagged for a closer look

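The 4 values of 68 probes were looked at, more than the 58 tested probes of the 40 genes. In 2 of the 68, 1 array stood apart, where chance flags about 1 in 20. A second, dim probe of Cdk2 read 0.073 in replicate 4 against 0.0014 to 0.0027 in the others. The brightest probe of Cdc6 read 0.0090 in replicate 1 against −0.029 to −0.026 in the others. Neither probe was called.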

How the results depend on the processing

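The reported 9 higher and 7 lower genes of the 40 stood beside 3257 and 2268 of all 16519 tested genes. Median centring gave 27 and 0 (10468 and 74 of all genes), and no background correction 14 and 11 (4654 and 3330). Scale normalization between arrays gave 0 and 0 (0 and 0 of all genes). There 7 of the 40 genes, and 3527 of all genes, had an unadjusted limma p under 0.05. It multiplied the ratios of replicate 1 by 4.10 and the others by 0.556 to 0.692. Leaving out 1 array gave 3 to 8 higher and 2 to 10 lower genes (1013 to 3439 and 563 to 2925 of all genes). For the wider list (17 higher, 11 lower) median centring gave 73 and 0, scale normalization 0 and 0, no background correction 27 higher, and leaving out 1 array 4 to 19 higher and 2 to 15 lower. Under median centring the median of all genes stood at 0.54. That setting turned these values above 0: Mcm2 0.48, Mcm3 1.00, Mcm5 0.66, Mcm6 0.90, Mcm7 0.86, Rrm1 0.75, Tyms 1.02, Ccnd3 0.55, Cdk4 0.22, Plk1 0.33, Aurka 0.43, Fen1 0.17 and Mnt 0.58. E2f1 (0.43) and Cdc6 (0.093) turned above 0 as well and were called in neither setting. Of these genes, Mcm2, Cdk4, Plk1, Aurka, Fen1, E2f1 and Cdc6 stayed below the median of all genes. Averaging the probes of a gene turned Ccnd2 to −0.22. The cause of these changes was not tested. Without the pairing of channels by replicate (8 unpaired samples) 6 genes were higher and 7 lower (2523 and 2006 of all genes). Cdk6, Cdc20 and Mki67 lost their calls there, with adjusted limma p-values of 0.117, 0.0789 and 0.0953. With slide as a random block, 9 were higher and 7 lower (3460 and 2399 of all genes). Probes near background limit what can be read for Top2a, Cdc45l, Bub1, Ccnd1 and the dim probe of E2f1.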
